A study of Mus musculus with 2 samples.

Results

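Malat1, Neat1, Kcnq1ot1, Gm26917, Gm42418, AY036118 and Lars2 are 7 of the 31053 gene rows of a droplet single-cell RNA count matrix from mouse small intestinal organoids. Organoids are cultured buds of gut epithelium that hold stem cells and their differentiated offspring. They were listed by name as nuclear and ribosomal-RNA-like transcripts, and were chosen by their measured levels across barcodes sorted by mitochondrial share, UMI depth, marker-gated cell class and barcode suffix. A UMI is a molecular tag that counts a captured RNA molecule once. The levels along those same sorts are therefore descriptions without a test.

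The labels name a control group without melatonin and a group treated with melatonin, and give no dose, strain, sex or genotype. In each group, cells of 3 organoid lines were pooled on culture day 3. The deposited files of both samples were identical (3 of 3 file kinds), so they held 1 matrix. It has 21806 barcodes in 2 suffixes, 12364 with suffix 1 and 9442 with suffix 2, and 29 barcode sequences carried both. No label ties a suffix to a treatment. The matrix was handled as 1 sample, no comparison of control with melatonin was made, and a difference between suffixes has no direction with respect to melatonin. All intervals below are 95% intervals that cover counting error only.

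The matrix held 194068573 UMIs. Barcodes with at most 20% mitochondrial UMIs numbered 4391 (20.1%) and held 58.2% of the UMIs, with a median of 27210. Barcodes with 20% to 50% numbered 4531, with a median of 4915 UMIs. Barcodes with over 50% numbered 12884 (59.1%), with a median of 3186 UMIs, of which 831 were not mitochondrial. All 8 epithelial markers were detected, at a summed 4731, 5276 and 4503 UMIs per 1000000 non-mitochondrial UMIs (CPM) in these 3 classes. Immune markers gave 183 UMIs in the whole matrix, mesenchymal markers 36 and erythroid markers 10.

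Malat1 is a long non-coding RNA retained in nuclear speckles, and Neat1 is the RNA scaffold of nuclear paraspeckles. Kcnq1ot1 is an imprinted antisense transcript that stays in the nucleus and silences its neighbours on the paternal chromosome. Ribosomal RNA is transcribed in the nucleolus as a long precursor, and its mature forms carry no poly(A) tail. In libraries primed on poly(A), a few gene rows that hold ribosomal RNA sequence still collect reads. Lars2 encodes the mitochondrial leucyl-tRNA synthetase and is the only protein-coding gene among the 7. The name ribosomal-RNA-like is a working name for 4 rows. By position, the annotation used here ties only Gm42418 and AY036118 to ribosomal RNA. Whether Gm26917 or Lars2 holds other ribosomal RNA sequence was not tested. UMI counts do not show where in the cell an RNA was. A high mitochondrial share is commonly used in single-cell work to mark damaged cells.

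The annotation places Gm26917, Gm42418 and AY036118 side by side. The files name no genome build, so positions are those of the GENCODE M21 annotation (GRCm38), matched by Ensembl identifier for all 7. Gm26917 (ENSMUSG00000097971) lies at chr17:39843013-39846341 on the plus strand. Gm42418 (ENSMUSG00000098178) starts 616 bases further on, at chr17:39846958-39848788, also on the plus strand. AY036118 (ENSMUSG00000105361) lies inside Gm42418 at chr17:39847113-39848035 on the minus strand. All 3 are annotated as single-exon lincRNAs. The minus strand of the same place carries CT010467.1, annotated as ribosomal RNA, which spans all 1831 bases of Gm42418. In this annotation AY036118 lies on the strand of CT010467.1 and Gm42418 on the opposite strand. Which of the strands reads as ribosomal RNA was not checked. RefSeq (GRCm38.p6) lists Gm42418 as a synonym of Rn18s-rs5, a ribosomal RNA pseudogene.

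The overlap is exact in sequence. All 923 bases of AY036118 are the reverse complement of bases 156 to 1078 of Gm42418, and bases 1 to 1244 of Gm42418 are the reverse complement of bases 1 to 1244 of the CT010467.1 transcript, 67.3% of its 1849 bases. Gm26917 and Lars2 had no exact match of 18 bases or more to CT010467.1, Gm42418 or AY036118. Other ribosomal RNA sequences were not searched. The edge of this overlap is shown because reads in it can be given to Gm42418 or AY036118 only by strand, and the sources used here do not state how strand was counted. Capitals mark the shared 30 bases.
Gm42418 bases 141 to 185: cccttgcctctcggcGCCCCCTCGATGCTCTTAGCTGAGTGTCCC
AY036118 bases 894 to 923: GGGACACTCAGCTAAGAGCATCGAGGGGGC
Within 923 bases the pair therefore cannot be told apart from sequence alone.

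Lars2 (ENSMUSG00000035202, chr9:123366927-123462666, plus strand) shares a stretch with a row that is not among the 7. Its main transcript has 21 exons and 3894 bases, of which 986 follow the stop codon as the 3′ UTR. Bases 3278 to 3329, all in the UTR, match 52 bases of Gm15564, an antisense gene on chromosome 16. Gm15564 was listed here among other ribosomal-RNA or repeat rows. The start of the match is shown in capitals because it is the stretch that reads of both rows could share. Its part in the counts was not tested.
Lars2 bases 3278 to 3307: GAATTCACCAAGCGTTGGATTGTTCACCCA
Between Lars2 and Gm26917, Gm42418 or AY036118 there was no exact match of 18 bases or more.

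The nuclear RNAs differ in build. Malat1 (ENSMUSG00000092341, chr19:5795690-5802672) and Neat1 (ENSMUSG00000092274, chr19:5824708-5845478) are neighbours on the minus strand of chromosome 19. Their longest transcripts have 6983 and 20771 bases. Kcnq1ot1 (ENSMUSG00000101609, chr7:143203458-143296549, minus strand) is a single exon of 93092 bases. Malat1 holds a run of 12 A that starts 310 bases before its annotated end, Kcnq1ot1 has 10 runs of 10 or more A, and Gm26917, Gm42418, AY036118 and Lars2 have none longer than 6. The stretch of Malat1 is shown with the run in capitals, since the library is primed on poly(A). What the run does to the counts was not tested.
Malat1 bases 6650 to 6709: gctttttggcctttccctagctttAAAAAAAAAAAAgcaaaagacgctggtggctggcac
GC content was 69.1% in Gm26917, 60.2% in Gm42418, 54.4% in AY036118 and 51.2% in Lars2. In the 3 nuclear RNAs it was 40.3% to 47.3%.

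The ribosomal-RNA-like rows took a larger part of the non-mitochondrial UMIs in the classes of higher mitochondrial share. Gm26917, Gm42418, AY036118 and Lars2 together made up 0.546% of non-mitochondrial UMIs at most 20% mitochondrial, 6.37% at 20% to 50% and 12.1% at over 50%. In bins of 10 percentage points the sum did not grow to the end. It was highest at 60% to 70% in both suffixes, with 10.5% and 17.6%, and stood at 8.32% and 10.6% at 90% to 100%. Within barcodes under 2000 UMIs it was 12.6%, 18.6% and 11.04% in the 3 classes, so there it was lowest at over 50%. Within 2000 to 10000 UMIs it was 5.46%, 9.96% and 12.7%, and over 10000 UMIs 0.387%, 2.24% and 7.76%. A level is given from here on in CPM, summed over the barcodes of a class, so that mitochondrial UMIs do not dilute it.

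Gm42418 was the most abundant of the 7 over the whole matrix, at 15676 CPM (interval 15655 to 15697). Its level was 3790 at most 20% mitochondrial, 36351 at 20% to 50% and 71269 at over 50%. The last is 18.8-fold above the first (interval 18.7 to 18.9). In suffix 1 the same levels were 3457, 34037 and 63689, and in suffix 2 they were 4191, 38850 and 84107. Both suffixes had the same order.

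Gm26917 had the widest span. It stood at 1326, 24375 and 43052 CPM in the 3 classes, a 32.5-fold difference between the outer ones (interval 32.3 to 32.7). Suffix 1 gave 1297, 23104 and 32260, and suffix 2 gave 1361, 25748 and 61330. The suffixes were close to each other at most 20% and 1.90-fold apart at over 50%.

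AY036118 stood at 194, 1247 and 3454 CPM, a 17.8-fold difference (interval 17.5 to 18.1). Lars2 stood at 154, 1756 and 3496, a 22.7-fold difference (interval 22.3 to 23.1). Both were scarce beside Gm42418, at 4.41 AY036118 UMIs and 4.73 Lars2 UMIs for every 100 of Gm42418 over the matrix.

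The 3 nuclear RNAs peaked in the middle class. Malat1 stood at 7253, 18238 and 14223 CPM, Neat1 at 358, 621 and 455, and Kcnq1ot1 at 17.2, 46.1 and 22.8. From at most 20% to over 50%, Malat1 was 1.96-fold higher (interval 1.95 to 1.97), Neat1 1.27-fold (1.24 to 1.31) and Kcnq1ot1 1.33-fold (1.18 to 1.5). The sign of all 3 depended on the processing, turning in 3 of 15 alternatives for Malat1, 6 of 15 for Neat1 and 5 of 15 for Kcnq1ot1. Malat1 in suffix 1 went from 5330 to 14402 and then 10026, and in suffix 2 from 9565 to 22381 and then 21331.

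A gene is counted as apart when its log2 ratio, with a pseudocount of 1 CPM, reached 1.5-fold. Between over 50% and at most 20%, 5 of the 7 rows were higher and none was lower, while 15.6% of the 15845 genes with at least 10 UMIs were higher and 4.8% lower. Between 20% to 50% and at most 20%, all 7 were higher, where 22.6% of genes were higher and 3.48% lower. The members were selected on this contrast, so the counts describe them and nothing is read from the difference to the background. By the size of the ratio among the 1496 genes that reached 100 CPM in a class, Gm26917, Lars2, Gm42418 and AY036118 held places 1, 2, 3 and 5. Place 4 was AL732506.1, which is not among the 7 and was named after its value was seen. Malat1 held place 63 and Neat1 place 245.

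**Figure D1:**
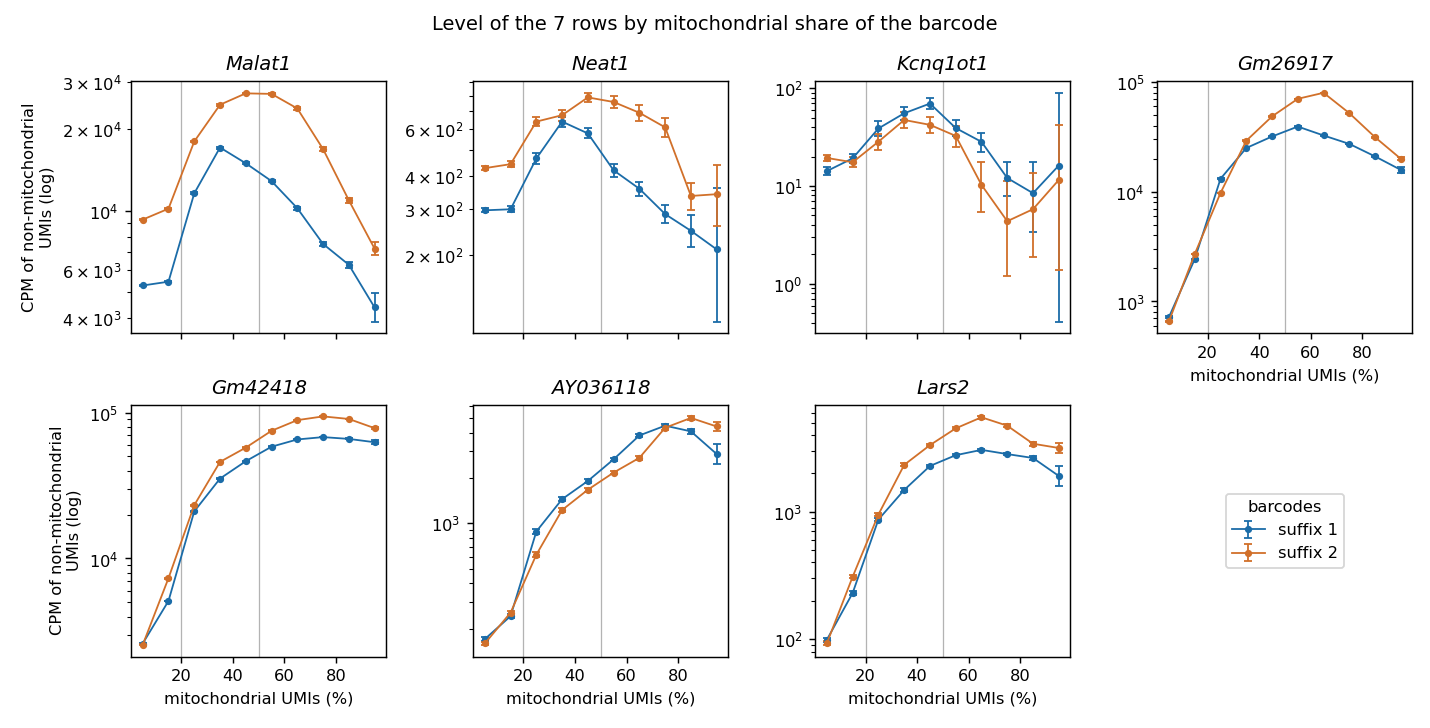
Level of each of the 7 rows (vertical axis, CPM of non-mitochondrial UMIs, log scale) in bins of 10 percentage points of mitochondrial share (horizontal axis), with suffix 1 and suffix 2 barcodes in separate colours and exact Poisson 95% intervals as bars. Grey lines mark 20% and 50%. The highest bins of the 3 nuclear RNAs lie between 30% and 50%, and those of the 4 ribosomal-RNA-like rows at higher shares. In suffix 2, Malat1 and Neat1 at 50% to 60% have intervals that overlap those of their highest bin.

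Bins of 10 percentage points located the peaks. Malat1 and Neat1 were highest at 30% to 40% in suffix 1 (17130 and 640 CPM) and at 40% to 50% in suffix 2 (27208 and 790). Kcnq1ot1 was highest at 40% to 50% in suffix 1, with 69.5 CPM, and at 30% to 40% in suffix 2, with 47.3. The highest bin of each nuclear RNA thus lay between 30% and 50%. In suffix 2 the next bin, 50% to 60%, gave 27082.5 for Malat1 and 759 for Neat1. Their intervals overlapped those of the highest bin, so the upper edge of these peaks is not fixed.

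The ribosomal-RNA-like rows peaked later, and not all in the same bin. Gm26917 was highest at 50% to 60% in suffix 1 (39184) and at 60% to 70% in suffix 2 (79556). Lars2 was highest at 60% to 70% in both, with 3059 and 5512. Gm42418 was highest at 70% to 80% in both, with 67875 and 94090. AY036118 was highest at 70% to 80% in suffix 1 (4444) and at 80% to 90% in suffix 2 (5001).

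Counted per barcode rather than in CPM, the rows parted into those that were lower beside the lower non-mitochondrial total and those that were not. The median number of non-mitochondrial UMIs per barcode was 24423, 2890 and 831 in the 3 classes. Mean Gm42418 UMIs per barcode were 88.0, 160 and 79.6, and mean AY036118 UMIs were 4.50, 5.48 and 3.86. Lars2 had 3.58, 7.72 and 3.90, and Gm26917 had 30.8, 107 and 48.1. The 4 rows were highest in the middle class. Between the outer classes, Gm26917 and Lars2 were higher at over 50% and Gm42418 and AY036118 lower.

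The nuclear RNAs fell per barcode. Malat1 went from 168 to 80.2 and then 15.9 UMIs per barcode, Neat1 from 8.31 to 2.73 and 0.508, and Kcnq1ot1 from 0.399 to 0.203 and 0.0255. The higher Malat1 level in CPM at over 50% stood beside a mean count per barcode below that at most 20%.

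**Figure D2:**
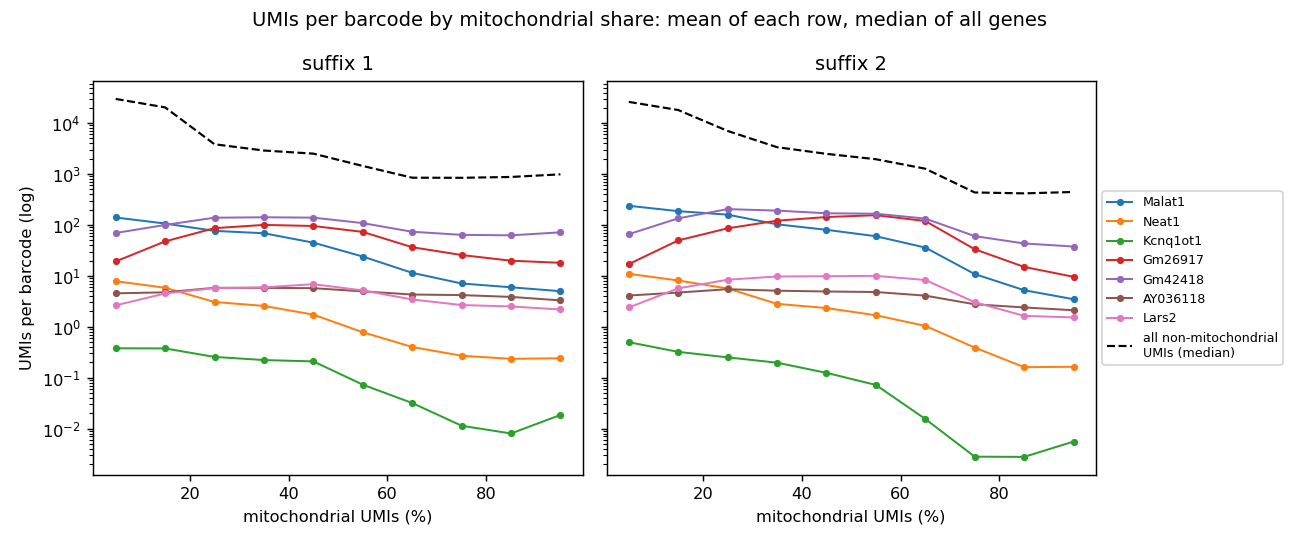
Mean UMIs per barcode of each row, and the median of all non-mitochondrial UMIs as a dashed line (vertical axis, log scale), by mitochondrial share (horizontal axis, %) for suffix 1 and suffix 2. The dashed line and the 3 nuclear RNAs decline to the right, while Gm42418 and AY036118 stay comparatively level.

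Means hid a skewed spread in Gm26917. Per 10000 non-mitochondrial UMIs of a barcode, its median was 4.27, 99.4 and 132 in the 3 classes, but its 90th percentile was 124, 1651 and 1129. Gm42418 was more even, with medians of 29.2, 487 and 695 and 90th percentiles of 588, 1188 and 1214.

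The skew came with a spread in the mix of Gm26917 and Gm42418. In the 21606 barcodes with at least 20 UMIs of the pair, Gm26917 made up 10% to 20% of it in 36.5% of barcodes. The share of barcodes fell to 6.7% at 30% to 40% and rose again to 7.9% at 50% to 60%. At 20% to 50% mitochondrial UMIs the dip was at 30% to 40%, with 9.1% of barcodes, and the upper peak at 50% to 60%, with 12.9%. At most 20% mitochondrial the upper range was thin, with 2.8% of barcodes at 50% to 60%. Both suffixes had the upper peak at 20% to 50% mitochondrial, at 11.1% in suffix 1 and 15.2% in suffix 2. At over 50% suffix 2 had it, with 10.6%, while suffix 1 fell steadily from 6.7% at 40% to 50% to 6.0% at 50% to 60%.

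**Figure D3:**
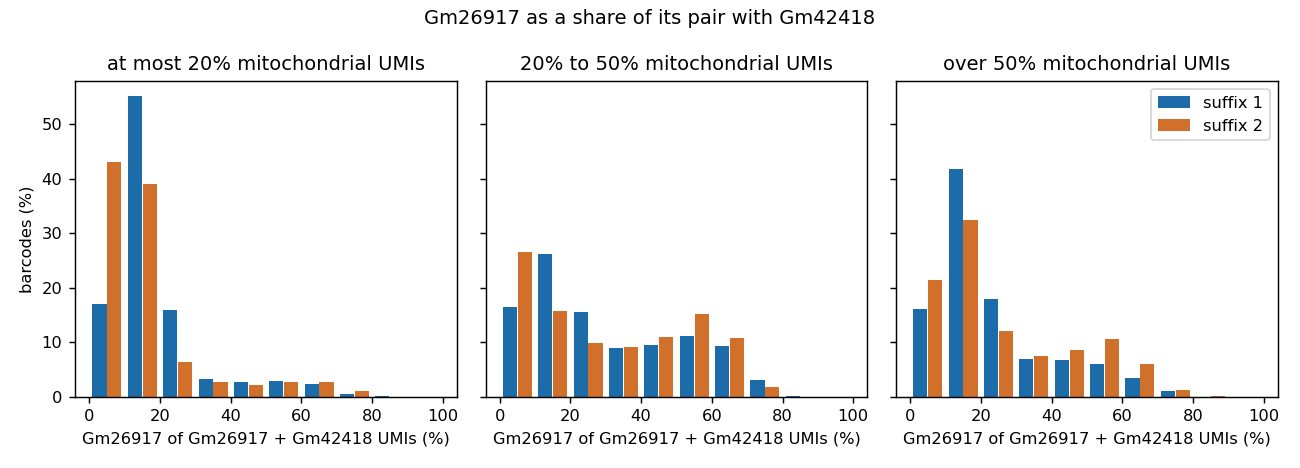
Percent of barcodes (vertical axis) by Gm26917 as a percent of Gm26917 and Gm42418 UMIs (horizontal axis, bins of 10), in the 3 mitochondrial classes, for barcodes with at least 20 UMIs of the pair. Bars of suffix 1 and suffix 2 stand side by side, and the middle class has its upper peak at 50% to 60%.

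A limit of 40% was set after these values were seen, and the barcodes on either side are ranges and not cell types. At or above it were 4671 barcodes (21.6%), with 1439 barcodes of either side within 5 percentage points of the limit. By mitochondrial class they were 8.8%, 35.5% and 21.1% of barcodes. Depth did not separate them strongly at over 50%, where the median was 3938.5 UMIs at or above the limit and 3002 under it. At 20% to 50% it was 3269.5 against 6747.5.

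Lars2 went with Gm26917. In barcodes of 20% to 50% mitochondrial and 2000 to 10000 UMIs, Lars2 stood at 5028 CPM in the 1253 barcodes where Gm26917 was 40% or more of the pair, and at 1773 in the 1882 barcodes under it. Lars2 was higher on the Gm26917-rich side in all 9 combinations of mitochondrial and depth class. This was not particular to Lars2, since Gm42418 was higher there in 8 of the 9, with intervals apart in all 8. AY036118 had no common direction. It was 2269 against 1619 in that combination, and 2836 against 3872 at over 50% with 2000 to 10000 UMIs.

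Kcnq1ot1 was lower on the Gm26917-rich side where its counts allowed a direction. In the same combination it stood at 6.13 CPM against 74.6, from 18 and 491 UMIs, and at over 50% with 2000 to 10000 UMIs at 8.18 against 29.9. Over both suffixes its intervals lay apart in 5 of the 9 combinations, each time lower on the Gm26917-rich side, and overlapped in 4, where no direction is read. The Gm26917-rich side held 0 to 56 Kcnq1ot1 UMIs in a combination. Within suffix 2, at most 20% and over 10000 UMIs, it was 20.2 against 18.4, with overlapping intervals. In suffix 1 it was 8.45 against 85.8 and in suffix 2 it was 3.96 against 59.8 at 20% to 50% with 2000 to 10000 UMIs. Xist, the RNA that coats the inactive X chromosome, stood at 2176 against 5482 there. Malat1 was 17444 against 24288, and at over 50% with 2000 to 10000 UMIs it was 14731 against 12780, so its direction turned.

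The same rows also differed with depth. Between barcodes under 2000 and over 10000 UMIs, 5 of the 7 rows were at least 1.5-fold higher in the shallow barcodes and none was lower, where 10.7% of 15741 genes were higher and 7.43% lower. The folds were 40.4 for Gm26917, 21.9 for AY036118, 16.4 for Lars2, 15.8 for Gm42418 and 3.49 for Kcnq1ot1. Malat1 was 1.46-fold and Neat1 0.927-fold, and their signs turned in 3 and 4 of 13 alternatives.

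Depth and mitochondrial share are tied together in this matrix, since the median mitochondrial share was 60.7% in barcodes under 2000 UMIs and 10.6% in those over 10000. Splitting by both showed how far each held alone. At most 20% mitochondrial, Gm42418 stood at 66936 CPM under 2000 UMIs, 29483 at 2000 to 10000 and 2955 over 10000. At over 50% the same depths gave 76759, 73581 and 46365. The depth gap was thus 22.7-fold in the first class and 1.66-fold in the last.

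Gm26917 changed its order with depth. At over 10000 UMIs it rose with mitochondrial share, from 641 to 3553 and 27554 CPM. At under 2000 UMIs it stood at 52881, 92945 and 25760, lowest in the class of over 50%. Within barcodes under 2000 UMIs, none of the 7 rows was at least 1.5-fold higher at over 50% than at most 20%, and Kcnq1ot1, Gm26917 and Neat1 were lower. Over the 9217 genes with at least 10 UMIs there, 7.89% were higher and 19.5% lower. AY036118 kept the order in every depth class, with 3924, 4141 and 5067 under 2000 UMIs and 159, 538 and 1300 over 10000. Lars2 stood at 2378, 4252 and 2843 under 2000 UMIs and at 112, 636 and 2384 over 10000.

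Malat1 and Neat1 turned as well. Malat1 at over 10000 UMIs rose from 6984 to 14519 and 26412 CPM with mitochondrial share, and at under 2000 UMIs it was 12365, 16962 and 8334. Neat1 at 2000 to 10000 UMIs was 864, 709 and 428. For both RNAs, the difference between over 50% and at most 20% had opposite directions in deep and shallow barcodes.

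Kcnq1ot1 was high in a corner of the grid. It stood at 115 CPM (71 UMIs) at most 20% and under 2000 UMIs and at 110 (59 UMIs) at 20% to 50% and under 2000 UMIs, against 16.6 at most 20% and over 10000 UMIs. At over 50% and under 2000 UMIs it was 11.3, from 12 UMIs. Its 3 highest barcodes gave 25.4% of its UMIs in the first of these cells and 22.0% in the second.

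**Figure D4:**
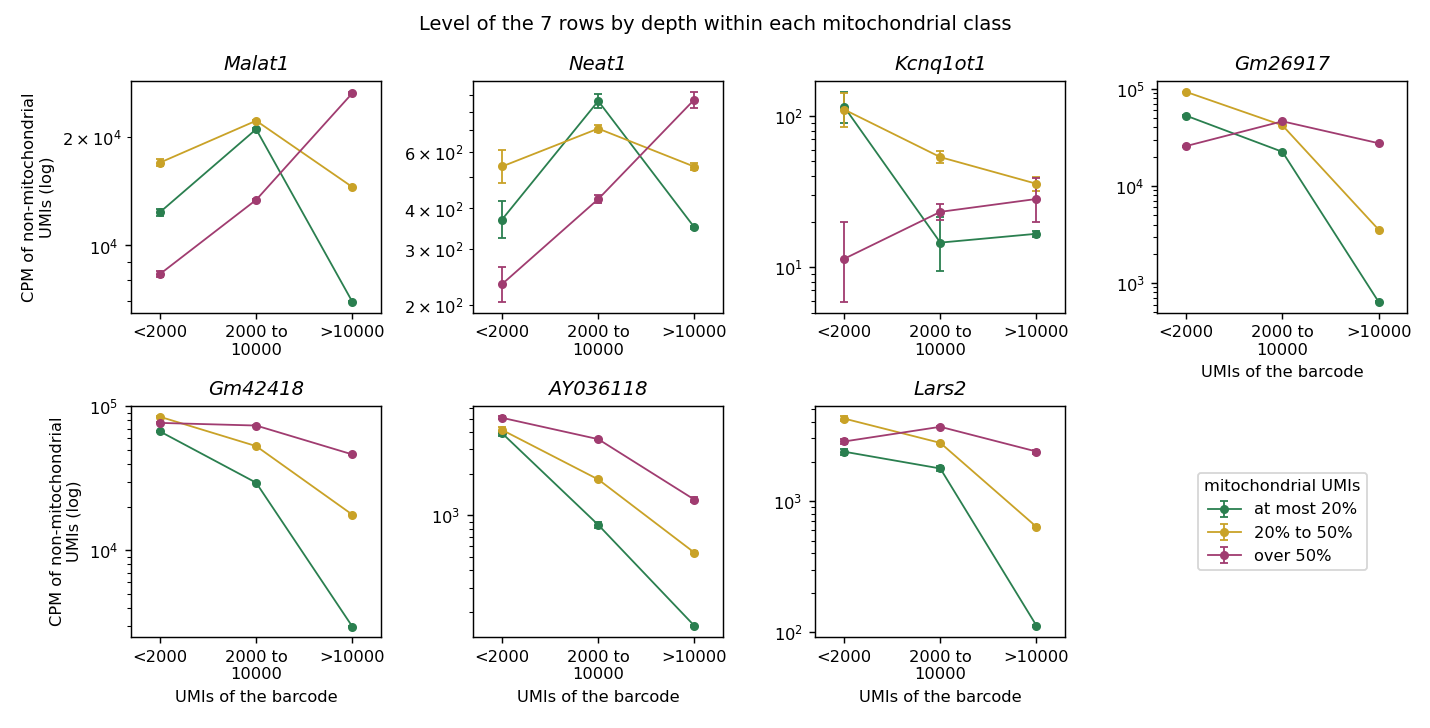
Level of each row (vertical axis, CPM of non-mitochondrial UMIs, log scale) at 3 depths (horizontal axis, UMIs of the barcode), with a line for each mitochondrial class and exact Poisson 95% intervals. Gm26917, Gm42418, AY036118 and Lars2 fall steeply with depth at most 20% mitochondrial, Gm26917 the most. Kcnq1ot1 falls less there, 6.93-fold from under 2000 to over 10000 UMIs. AY036118 is the only row whose 3 lines do not cross.

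Values just inside and outside the limits of the classes lay close for most rows, and Gm26917 and Kcnq1ot1 had the largest gaps. Gm42418 stood at 13363 CPM in the 239 barcodes of 18% to 20% mitochondrial UMIs and at 16767 in the 213 of 20% to 22%. Across the upper limit it was 55654 at 48% to 50% and 56556 at 50% to 52%. Gm26917 was 7231 and 8211 across the lower limit, and 41232 and 46679 across the upper. Across the depth limits Gm42418 was 75957 and 75342 at 2000 UMIs, and 33043 and 26301 at 10000. Across 10000 UMIs Gm26917 went from 14816 to 9561, 1.55-fold, and Lars2 from 1674 to 1150, 1.46-fold. Kcnq1ot1 went from 63.3 to 35.3 across 50% mitochondrial, 1.79-fold, and from 51.2 to 32.8 across 2000 UMIs, 1.56-fold.

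The mix of the ribosomal-RNA-like rows was steadier for Lars2 and AY036118 than for Gm26917. Over the 9 combinations of mitochondrial and depth class, Lars2 ranged from 3.55 to 6.01 UMIs per 100 of Gm42418. AY036118 ranged from 2.80 to 6.60. Gm26917 ranged from 20.1 to 109.8, and Malat1, which is no ribosomal-RNA-like row, from 10.9 to 236. In level, Gm42418 spanned 28.6-fold over the same combinations and Gm26917 145-fold.

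The share of barcodes with at least 1 UMI depended on depth, so each barcode was also thinned to 500 non-mitochondrial UMIs, which left out 2663 of 21806 barcodes, 2517 of them with over 50% mitochondrial UMIs. Thinned, Gm26917 was found in 34.1%, 82.5% and 98.0% of barcodes of the 3 classes, and Lars2 in 15.9%, 57.8% and 69.9%. AY036118 was found in 20.4%, 56.3% and 80.9%, Gm42418 in 76.6%, 99.1% and 99.99%, and Malat1 in 86.9%, 95.6% and 94.1%. Neat1 was at 17.0%, 20.8% and 13.5% and Kcnq1ot1 at 1.19%, 2.41% and 0.772%, both highest in the middle. Thinned to 1000, which left out 9040 barcodes, both were still highest in the middle, but the order of the outer classes changed, with Neat1 at 27.5%, 33.5% and 30.8% and Kcnq1ot1 at 2.19%, 4.39% and 2.2003%. Unthinned, Neat1 was found in 78.9%, 58.8% and 23.0%. None of the gated classes lacks these rows, so the part of RNA free in solution was not tested.

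Cell classes were compared in 4066 barcodes with at most 20% mitochondrial UMIs, at least 1000 UMIs and at least 500 genes. A barcode entered a class when its markers passed a set level, at least 3 were detected and no other class was passed. The gates gave 540 enteroendocrine, 331 enterocyte, 302 stem and 877 proliferating barcodes. Goblet (24), revival (22) and Paneth (1) gates held fewer than 50 and were not used, while 1561 barcodes passed no gate and 408 several. The stem and proliferating gates are ranges and not sharp types, with 712 and 1004 kept barcodes within 1.2-fold of their limits. All 7 rows were at least 1.5-fold apart between their highest and lowest class, where 84.1% of 14483 genes were, so the count is near the background. In suffix 2 alone Gm26917 was only 1.40-fold apart (interval 1.34 to 1.46).

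Malat1 was highest in enteroendocrine barcodes, the hormone-secreting cells, at 26057 CPM. It was 9139 in enterocyte, 5367 in stem and 4580 in proliferating barcodes, 5.69-fold between the outer classes (interval 5.65 to 5.73). Suffix 1 gave 20016, 7008, 3809 and 3463 and suffix 2 gave 31588, 10382, 7107 and 6942. The order of the 4 classes was the same in both, and the last pair lay closest together.

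Neat1 had the same leading class. It stood at 1693 CPM in enteroendocrine, 448 in enterocyte, 189 in proliferating and 176 in stem barcodes, 9.60-fold apart (interval 9.09 to 10.1). Enteroendocrine barcodes were shallower, with a median of 14495.5 UMIs against 29177 to 37270 in the other classes, and had a median mitochondrial share of 6.82% against 9.06% to 13.5%. Per barcode the direction held for both RNAs. Malat1 had a mean of 372 UMIs per enteroendocrine and 140 per proliferating barcode, and Neat1 had 24.2 and 5.77.

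Kcnq1ot1 ran the other way, with 20.7 CPM in stem, 16.3 in proliferating, 10.2 in enterocyte and 9.33 in enteroendocrine barcodes. The stem to enteroendocrine fold was 2.22 (interval 1.68 to 2.97), and both suffixes had this order.

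The ribosomal-RNA-like rows spanned less among classes than Malat1 and Neat1. Gm42418 was 5500 CPM in enteroendocrine barcodes, 3880 in stem, 3232 in proliferating and 2986 in enterocyte, a 1.84-fold span. AY036118 spanned 2.24-fold, from 323 in enteroendocrine to 144 in enterocyte barcodes, and Lars2 1.56-fold, from 188 to 120. Gm26917 was highest in stem barcodes, at 1214, and lowest in enterocyte barcodes, at 756, but few barcodes carried much of it. The 3 highest barcodes held 21.3% of its UMIs in the stem class and 25.9% in the enterocyte class. Its median per 10000 non-mitochondrial UMIs of a barcode was highest in enteroendocrine barcodes, at 5.51, against 3.97 in stem and 2.68 in enterocyte barcodes.

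The lowest class was not stable across suffixes. Gm42418, AY036118 and Lars2 were lowest in proliferating barcodes in suffix 1 and in enterocyte barcodes in suffix 2. Per barcode, Gm42418 and Lars2 were lower in enteroendocrine than in stem and proliferating barcodes, opposite to their order in CPM. Gm42418 had 78.6 UMIs per enteroendocrine barcode against 103 and 98.5, and Lars2 2.68 against 4.195 and 4.09. AY036118 had 4.62 against 4.91 and 4.79, too close for a direction to be read. Lars2 was lowest per barcode in the enteroendocrine class, below the 3.103 of enterocyte barcodes. The part of depth in the enteroendocrine levels of these rows was not tested.

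**Figure D5:**
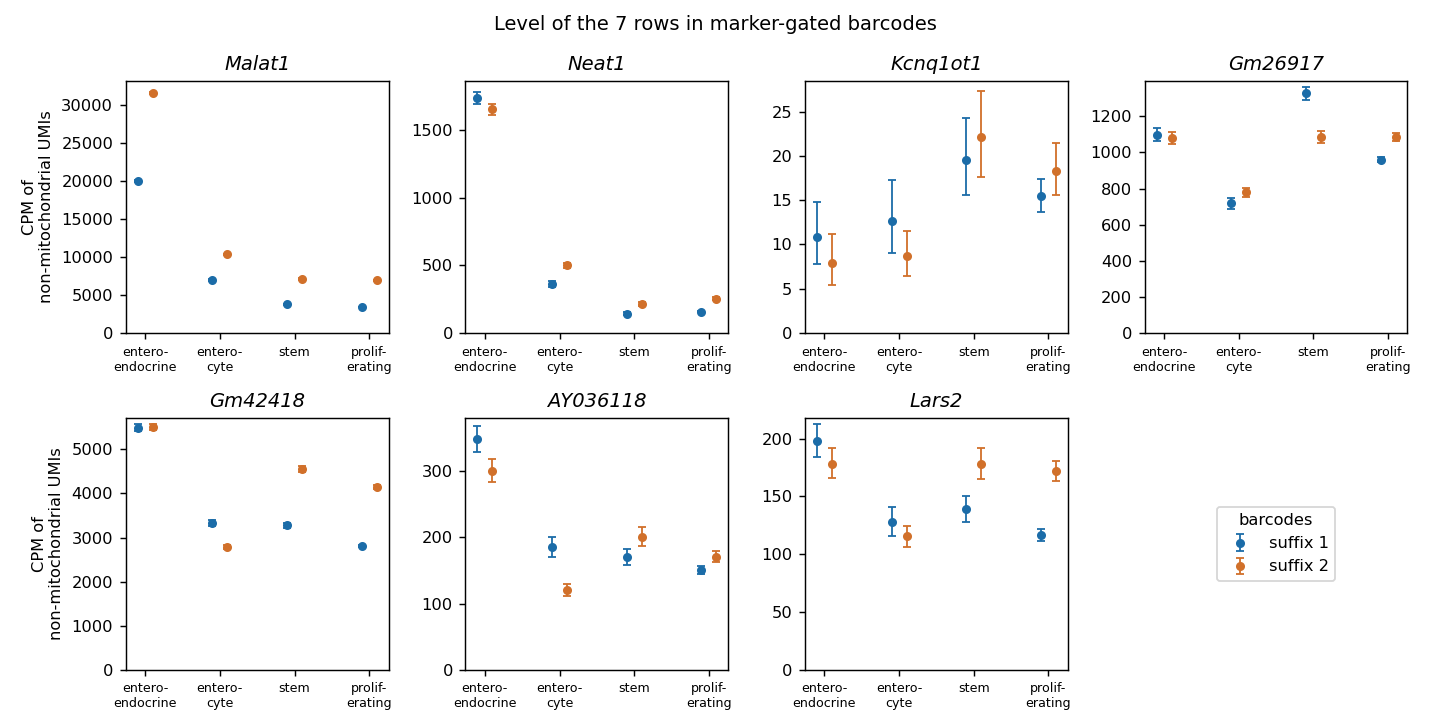
Level of each row (vertical axis, CPM of non-mitochondrial UMIs, from 0) in the 4 marker-gated classes (horizontal axis), with suffix 1 and suffix 2 as separate points and exact Poisson 95% intervals. Malat1 and Neat1 stand apart in enteroendocrine barcodes in both suffixes, and Kcnq1ot1 is lowest there.

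Between the suffixes, 1 of the 7 rows was at least 1.5-fold apart, where 3.61% of 16272 genes were apart in either direction. Malat1 stood at 12597 CPM in suffix 2 and 7147 in suffix 1, 1.76-fold (interval 1.756 to 1.769). The fold was 1.79 at most 20% mitochondrial, 1.55 at 20% to 50% and 2.13 at over 50%. In the gates it was 1.58 in enteroendocrine, 1.48 in enterocyte, 1.87 in stem and 2.0 in proliferating barcodes. Suffix 2 was thus higher in every class compared.

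Neat1 was 1.45-fold higher in suffix 2, and 0.952-fold in enteroendocrine barcodes. AY036118 was lower in suffix 2, at 593 against 773 CPM (0.767-fold), while its host Gm42418 was 1.11-fold higher. Neither direction held in every gate, since AY036118 was higher in suffix 2 in stem (1.18-fold, interval 1.07 to 1.31) and proliferating barcodes (1.13-fold, 1.06 to 1.21), and Gm42418 was lower in enterocyte barcodes (0.840-fold, 0.819 to 0.861). At most 20% mitochondrial AY036118 was 0.988-fold, with an interval of 0.961 to 1.02. Gm26917 was 1.05-fold at most 20% and 1.90-fold at over 50%, and Lars2 was 1.16-fold and 1.59-fold. In stem barcodes Gm26917 was 0.820-fold (interval 0.788 to 0.854).

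Across barcodes with at most 20% mitochondrial UMIs and over 10000 UMIs, 1808 in suffix 1 and 1544 in suffix 2, several pairs of rows rose and fell together. These correlations (Pearson r of log2(1 + UMIs per 10000 non-mitochondrial UMIs)) describe barcodes that share a library and a total. Gm42418 had r of 0.60 and 0.73 with Lars2 in suffix 1 and suffix 2, 0.62 and 0.63 with AY036118, and 0.57 and 0.45 with Gm26917. Malat1 and Neat1 had 0.66 and 0.55. Malat1 also had 0.57 and 0.41 with Gm42418 and 0.46 and 0.32 with AY036118. Neat1 had 0.41 and 0.18 with Gm42418, 0.37 and 0.16 with AY036118, 0.20 and 0.08 with Gm26917, and 0.18 and 0.02 with Lars2. The highest r of Kcnq1ot1 with any other row was 0.06, and its lowest was -0.10, with Malat1 in suffix 2.

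Depth moved with these values. Gm42418 had r of -0.70 and -0.60 with log2 UMIs, AY036118 -0.57 and -0.53, and Malat1 -0.52 and -0.44. Among barcodes with over 50% mitochondrial UMIs and at least 500 non-mitochondrial UMIs, Gm42418 and Lars2 had 0.34 and 0.50, and AY036118 and Gm26917 -0.0045 and 0.11. These were 7423 of 7500 barcodes in suffix 1 and 2944 of 5384 in suffix 2, so 45.3% of suffix 2 was left out. There Malat1 was at -0.05 and -0.22 with Gm42418, against 0.57 and 0.41 in the deep barcodes of at most 20%.

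The genes most like each row were ranked over 10888 genes found in at least 5% of the deep barcodes. Malat1 was most like Chgb (mean r 0.69), a granin of hormone granules, Hepacam2 (0.67) and Pcsk1 (0.67), a prohormone convertase. Neat1 was most like Chgb (0.63), the immediate early gene Egr1 (0.62) and Chga (0.61). For Gm26917, Gm42418 and Lars2, the 3 most alike genes were the other ribosomal-RNA-like rows. AY036118 had Gm42418 (0.62), Lars2 (0.39) and Malat1 (0.39). The best match of Kcnq1ot1 was weak, with Rps6 at 0.16.

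Lists of related genes were set beside the 7 rows on the log2 scale with a pseudocount of 1 CPM. The median log2 ratio of over 50% against at most 20% was 0.08 over all 15845 genes, of which 15.6% were at least 1.5-fold higher and 4.8% lower. The counts of the lists stand against these shares, and several lie near them. Of other nuclear long non-coding RNAs, 2 of the 9 with enough UMIs were at least 1.5-fold higher and none lower, with a median of 0.36. Xist was among them, at 2928 against 1209 CPM. Of 12 speckle and paraspeckle proteins, 3 were higher and none lower (median 0.20), led by Son (log2 ratio 1.01) and Srrm2 (0.72), both large speckle scaffolds. In the imprinted domain around Kcnq1ot1, none of 8 genes was higher or lower (median -0.21), with Kcnq1 at 0.37, Cdkn1c at -0.47 and Cd81 at -0.52.

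In this contrast the Lars2 row differed from the rows of its enzyme family. How much of the row is the Lars2 message was not tested. Of 17 aminoacyl-tRNA synthetases, 5 were higher and 1 lower (median 0.19). Vars2 was the highest, with a log2 ratio of 1.25, and Fars2 the lowest, with -0.63, while that of Lars2 was 4.49. Of 16 genes of ribosomal RNA synthesis and the nucleolus, 2 were higher and none lower (median 0.05), namely Nop56 (0.68), a box C/D small nucleolar RNP protein, and Polr1a (0.61), the large subunit of RNA polymerase I. Of 81 ribosomal protein genes, none was higher and 12 were lower (median -0.40), and of 10 abundant cytosolic messages 4 were lower (median -0.55), with the ferritin chains Fth1 at -0.87 and Ftl1 at -0.84.

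Other ribosomal-RNA or repeat rows had far lower counts, and only 5 of the 17 listed reached 10 UMIs over the outer classes, so no count of higher rows is given. Gm10800, a repeat row, stood at 17.2 against 0.844 CPM, from 247 and 86 UMIs. Gm15564, which shares 52 bases with the Lars2 UTR, stood at 5.49 against 0.186, from 79 and 19 UMIs. All 13 mitochondrially encoded genes were higher, as the sorting by mitochondrial share fixes.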

How the data were processed

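The members and all gene lists were chosen with earlier results of these data known. Raw UMI counts per gene and barcode were deposited by the authors as a matrix. Cell Ranger 3.1.0, bcl2fastq 2.20.0 and STAR 2.7.3a are named in the submitters' processing notes, and the genome build and the filter on barcodes are not given in the sources used here. All 21806 barcodes were used, and doublets were not removed. UMIs were summed over the barcodes of a class and divided by their non-mitochondrial UMIs, times 1000000 (CPM). Levels carry exact Poisson intervals, ratios exact conditional binomial intervals and shares Clopper-Pearson intervals. With 1 matrix there are no replicates, barcodes are not replicates, and no p-value was computed. Genes named are the 7 members, the 3 genes most like each, the 2 highest and 2 lowest ratios of each list, and Xist. AL732506.1 was added after its value was seen, and CT010467.1 and Rn18s-rs5 were named from the annotation. The ratio calls were tested on simulated counts. Alternatives changed the total, the pseudocount, the weighting, the barcodes kept, the class limits, the gene filter, the thinning and the gates. Python 3.11.15, numpy 2.4.6, scipy 1.17.1 and pandas 2.3.3 were used.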

Additional observations from a re-analysis of the deposited data

Results flagged for a closer look

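The log2 ratio of Kcnq1ot1 between barcodes with over 50% and at most 20% mitochondrial UMIs had opposite signs in the suffixes, but only suffix 1 had a direction beyond counting error. It was 0.68 in suffix 1 (26.0 against 15.9 CPM, 1.64-fold with an interval of 1.41 to 1.89) and -0.10 in suffix 2 (17.4 against 18.7 CPM, 0.931-fold with an interval of 0.743 to 1.15, from 93 UMIs at over 50%). The difference between the suffixes was not tested, and the class of over 50% held 328 UMIs of this gene in all.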

How the results depend on the processing

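Of 81 alternatives to the counts given, 76 stayed within 1.5 times of the main count. Of 434 alternatives to the log2 ratios of single rows, 145 were the same, 281 moved and 8 of ratios at least 1.5-fold apart changed sign. A further 18 sign changes, counted among the 281, were of ratios within 1.5-fold, all for Malat1, Neat1 or Kcnq1ot1. Within barcodes under 2000 UMIs, 3 of the 7 rows were apart between over 50% and at most 20% mitochondrial UMIs in place of 5, all 3 lower where the 5 were higher, and 7.89% of genes were higher and 19.5% lower. Between 20% to 50% and at most 20%, 2 were apart in place of 7, both higher, where 18.7% of genes were higher and 12.2% lower. There the log2 ratio of over 50% against at most 20% turned to -3.23 for Kcnq1ot1 (11.3 against 115 CPM), -0.67 for Neat1 (232 against 370), -0.57 for Malat1 and -1.04 for Gm26917, and that of 20% to 50% against at most 20% to -0.0597 for Kcnq1ot1. Within 2000 to 10000 UMIs it turned to -0.65 for Malat1 and -1.01 for Neat1 (over 50%) and to -0.28 for Neat1 (20% to 50%). Within over 50% mitochondrial UMIs, the depth ratio turned to -1.66 for Malat1, -1.24 for Kcnq1ot1 and -0.10 for Gm26917. That of Malat1 also turned to -0.39 with all UMIs as the total and -0.05 with equal weight for each barcode, and that of Neat1 turned from -0.11 to between 0.00213 and 0.41 in 4 alternatives. With all UMIs as the total, the ratio of over 50% against at most 20% turned to -0.69 for Malat1, -1.31 for Neat1 and -1.14 for Kcnq1ot1, since mitochondrial UMIs then enter the total, and the median of all genes moved from 0.08 to -1.04. Without thinning, 1 of the 7 rows was found in a larger share of barcodes at over 50% than at most 20%, in place of 5. With equal weight for each barcode, the ratio of over 50% against at most 20% turned to -0.58 for Neat1 and -0.87 for Kcnq1ot1, with limits of 20% and 80% to -0.28 and -1.05, and without the deepest 5% of barcodes to -0.08 for Neat1. Of 8 related lists, 4 had a median above that of all genes, 2 with all UMIs as the total and 7 within under 2000 UMIs. For the 4 ribosomal-RNA-like rows, 164 of 172 alternatives of the mitochondrial and depth ratios stayed at least 1.5-fold higher, between -1.04 and 6.36 in log2 ratio over all of them. No paired analysis was possible because the files hold 1 matrix without replicates. Suffix cannot be tied to treatment, the part of free RNA and of doublets beyond the 5% of deepest barcodes was not tested, and Kcnq1ot1 is limited by its 2997 UMIs.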
